A study of Mus musculus with 2 samples.

Results

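RefSeq noncoding RNAs are transcripts that the RefSeq collection holds under noncoding accessions, and the array carried 60-base probes for many of them. The members described here are all non-control probes with such an accession, leaving out 69 on chromosomes X and Y. They came to 1331 of the 55676 probes of the array and covered 1183 RNAs. By accession, 17 of the 1331 matched genes that RefSeq classes as protein-coding, and 66 had no match in the RefSeq table used. Host genes named Snhg or Gas5 (15 probes, 12 RNAs) were kept apart from the other noncoding RNAs (1316 probes, 1171 RNAs). The measured samples were regulatory T (Treg) cells, CD4 T cells that restrain immune responses, from wild-type and Nr4a-TKO mice that were all 5 weeks old. The Nr4a family of nuclear receptors has the members Nr4a1, Nr4a2 and Nr4a3. Cells were sorted and lysed without culture, per the labels' protocols. Altered alleles, sorting markers, sex and how many mice went into a sample are not in the labels. Each genotype had 1 array, so no difference below has a replicate check or a p-value.

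Noncoding RNAs serve in many roles. Small nucleolar RNAs (snoRNAs) guide chemical modification of ribosomal RNA and are cut from introns of host transcripts such as the Snhg genes and Gas5, while the spliced exons of many hosts are read by ribosomes and degraded by nonsense-mediated decay. Other members shape nuclear bodies (Malat1, Neat1), silence neighbouring genes on 1 parental chromosome (Airn, Kcnq1ot1), or are pseudogenes, copies of coding genes that are still transcribed. The labelling kit used here primes copying from poly(A) tails, and how RNAs without such a tail came to be labelled was not tested.

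The host probes are shown first because theirs was the most uniform direction among member groups with more than 10 measured probes. All probe sequences are from the deposited scanner files, in the sense of the RNA, with positions on mm9. No mm9 gene models were used here, so exon and intron positions are not given. The 3 Gas5 probes lie at successive places along 1 RNA and share that target. In the Snhg15 probe, capitals mark 22 bases that also occur in a probe for the coding gene Utp6.
Gas5 probe 1 (chr1:162966369-162966428, plus strand): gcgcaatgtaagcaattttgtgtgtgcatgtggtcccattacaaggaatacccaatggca
Gas5 probe 2 (chr1:162967350-162967409, plus strand): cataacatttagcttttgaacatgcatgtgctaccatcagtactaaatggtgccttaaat
Gas5 probe 3 (chr1:162968608-162968667, plus strand): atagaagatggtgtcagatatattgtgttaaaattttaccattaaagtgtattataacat
Snhg1 (chr19:8798913-8798972, plus strand): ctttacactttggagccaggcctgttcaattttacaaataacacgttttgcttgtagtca
Snhg5 (chr9:88417150-88417209, minus strand): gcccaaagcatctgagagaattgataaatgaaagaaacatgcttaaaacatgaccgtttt
Snhg12 (chr4:131866864-131866922, plus strand): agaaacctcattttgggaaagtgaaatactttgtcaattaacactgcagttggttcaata
Snhg15 (chr11:6425616-6425675, minus strand): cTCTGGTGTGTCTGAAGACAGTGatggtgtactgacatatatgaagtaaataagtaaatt

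Many snoRNA hosts and ribosomal protein genes begin with a run of pyrimidines, a feature of transcripts whose translation follows growth signals. Promoters from the RefSeq table of GRCm38.p6 were at hand for 11 of the 12 hosts (13 starts), each with 250 bases before and 50 after the annotated start. A C followed by at least 4 pyrimidines within 10 bases of the start, on the sense strand, was found at 8 of the 13 host starts (61.5%). It was found at 29.7% of all 32851 promoters and at 55.3% of 76 ribosomal protein promoters. The 4 host starts below run from 20 bases before to 40 bases from the start, and capitals mark that pyrimidine run.
Gas5 start (chr1:161035146-161035205, plus strand): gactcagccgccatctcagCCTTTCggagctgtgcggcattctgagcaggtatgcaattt
Snhg3 start (chr4:132353647-132353706, minus strand): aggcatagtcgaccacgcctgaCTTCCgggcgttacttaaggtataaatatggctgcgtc
Snhg7 start (chr2:26640205-26640264, minus strand): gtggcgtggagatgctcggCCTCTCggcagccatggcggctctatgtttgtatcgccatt
Snhg12 start (chr4:132308658-132308717, plus strand): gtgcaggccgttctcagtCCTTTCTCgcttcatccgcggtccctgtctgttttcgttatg

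Other letters searched, on both strands, gave fewer matches. The Nr4a monomer site AAAGGTCA was in 0 of the 13 host promoters and in 1.51% of all promoters. It was also in 0 of the 11 promoters matched to members that were at least 2-fold higher, and in 0 of the 17 matched to members at least 2-fold lower. The E box CACGTG was in 1 host promoter (Snhg15) against 7.15% of all promoters. Among members at least 2-fold higher, 3 of 11 promoters held the E box (Cerox1 and Gm16894), and among those lower 1 of 17 (4930581F22Rik). The cAMP response element TGACGTCA was in 2 of the 13 host promoters (Gas5 and Snhg15), against 1.79% of all promoters. It was in 0 of the 11 promoters of higher members and in 1 of the 17 of lower ones (Gm16062). A match describes letters in a 300-base window and nothing about binding.

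The next probes are shown because the largest differences and the disagreements between probes rest on them. Gm16894 had the highest and Gm4956 the lowest difference among members measured on both arrays, and H19, Mirt1 and Kcnq1ot1 each had 2 probes. Malat1 and Lockd lay above the 75th percentile on both arrays.
Gm16894 (chr1:40133079-40133138, minus strand): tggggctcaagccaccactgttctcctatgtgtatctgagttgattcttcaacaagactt
Gm4956 (chr1:21275328-21275387, minus strand): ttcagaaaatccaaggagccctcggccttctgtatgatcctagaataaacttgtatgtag
Malat1 (chr19:5795713-5795772, minus strand): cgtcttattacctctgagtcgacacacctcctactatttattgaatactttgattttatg
Lockd (chr6:134901431-134901490, plus strand): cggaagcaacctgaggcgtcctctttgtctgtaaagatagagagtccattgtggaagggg
H19 probe 1 (chr7:149761492-149761551, minus strand): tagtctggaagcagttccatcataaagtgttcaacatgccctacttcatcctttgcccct
H19 probe 2 (chr7:149762417-149762476, minus strand): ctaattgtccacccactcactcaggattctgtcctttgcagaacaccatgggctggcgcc
Mirt1 probe 1 (chr19:53517751-53517810, minus strand): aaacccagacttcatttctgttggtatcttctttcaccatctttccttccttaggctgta
Mirt1 probe 2 (chr19:53526151-53526210, minus strand): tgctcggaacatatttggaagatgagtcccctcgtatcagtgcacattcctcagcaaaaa
Kcnq1ot1 probe 1 (chr7:150434020-150434079, minus strand): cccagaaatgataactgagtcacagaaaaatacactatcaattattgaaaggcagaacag
Kcnq1ot1 probe 2 (chr7:150440140-150440199, minus strand): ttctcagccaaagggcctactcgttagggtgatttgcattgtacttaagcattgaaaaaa

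Values below are scaled log2 signals: the log2 of the scanner's processed intensity less the array's 75th percentile, so that 0 is the 75th percentile. A difference is the value on the array labelled Nr4a-TKO less that on the wild-type array, and 1 on this scale is 2-fold. A probe was taken as measured where the scanner called it well above background on both arrays. The spread between repeated spots of 1 probe gave an SD of 0.080 for a difference (262 probes with at least 3 spots), which covers the spotting of 1 array and not mice or cell preparations. Signals of different probes are not set against each other, since probes differ in how well they bind.

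The 2 arrays differed in ways that touch every value here. The Nr4a3 probe was 7.04-fold lower on the array labelled Nr4a-TKO, whereas Nr4a1 differed by 0.06 and the 2 Nr4a2 probes were higher by 1.34 and 1.04 on the log2 scale. The array's genotype therefore rests on its label, and which part of each gene was altered is not given. All 7 Treg markers checked were measured, and 3 of them were at least 2-fold lower there (Foxp3 17.2-fold, Ikzf2 3.07-fold, Ctla4 2.29-fold). Ms4a1, which marks B cells, was above background on neither array, and Itgam, a myeloid marker, was measured on both with a difference of -0.10. Of the markers of other cells, 1 of 3 for B cells, 3 of 4 for CD8 and NK cells, 2 of 4 for myeloid cells and 0 of 2 for erythroid cells were measured on both arrays. The part of cell makeup in the results was not tested, and in bulk RNA fewer cells of a type and less RNA per cell cannot be told apart. All 7 Xist probes were brighter on the array labelled Nr4a-TKO, by 7.83 and 8.57 for the 2 measured on both. Sex and genotype cannot be told apart. Centring on 9 spike-in control probes in place of the 75th percentile lowered every difference by 0.23.

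Of the 1331 member probes, 645 (48.5%; 574 RNAs) were well above background on both arrays, 77 only on the wild-type array, 39 only on the array labelled Nr4a-TKO and 570 on neither. Protein-coding probes were measured more often, 69.9% of 25488. Among the 645, 19 (2.95%) were at least 2-fold higher on the array labelled Nr4a-TKO, where the background over all 32586 measured autosomal probes was 2.99%. At least 2-fold lower were 32 (4.96%; 31 RNAs) against a background of 3.08%. For protein-coding probes the shares were 3.96% higher and 2.62% lower. Averaging the probes of an RNA gave 19 higher (3.31%) and 24 lower (4.18%) of 574 RNAs, against 3.03% and 2.74% of all autosomal genes. With spike-in centring 13 members were at least 2-fold higher (2.02%, background 1.87%) and 44 lower (6.82%, background 5.02%). Over all autosomal probes, the higher share of those past 2-fold went from 49.2% to 27.1% with that centring. Correcting the background by normexp gave 12 higher (1.86%, background 1.77%) and 20 lower members (3.10%, background 1.78%). Among 175 members with a mean signal above the 75th percentile 5 were higher (2.86%, background 2.03%) and 6 lower (3.43%, background 2.21%).

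**Figure D1:**
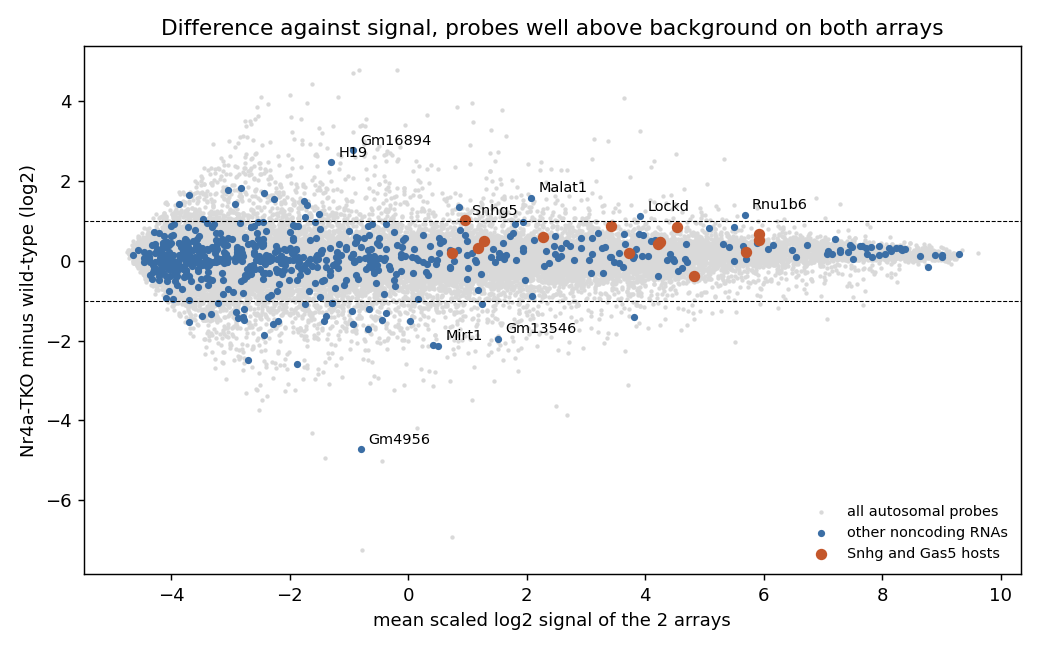
Difference (log2, array labelled Nr4a-TKO less wild-type) against mean scaled log2 signal for every autosomal probe well above background on both arrays (grey), other noncoding RNAs (blue) and Snhg and Gas5 hosts (orange), with dashed lines at 2-fold. Of 645 member probes, 594 lie between the lines, and the hosts sit above the 75th percentile of signal (0 on the horizontal axis).

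The median member difference was 0.10, beside 0.07 for all autosomal probes and 0.09 for protein-coding ones. In all, 400 members (62.0%) were higher by any amount, against a background of 58.3%. The middle 50% of members lay between -0.16 and 0.36. Across members, the GC percent of the probe and the difference had a Spearman rho of -0.0041 (645 probes that share the 2 arrays). Hosts had a median probe GC of 38.3%, while coding probes had 41.7%.

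Snhg and Gas5 transcripts were mostly higher. Of the 14 measured host probes (11 RNAs), 13 were higher on the array labelled Nr4a-TKO (92.9%, beside the 58.3% of all autosomal probes), with a median difference of 0.48. All 14 had a mean signal above the 75th percentile. Among all autosomal probes that bright, 65.8% were higher and the median was 0.11. Of the 175 members that bright, hosts included, 136 (77.7%) were higher. The other noncoding RNAs had a median of 0.09. A difference at or above the host median was found for 11.7% of all autosomal probes. Host differences ran from -0.38 to 1.02, and 1 of the 14, Snhg5, passed 2-fold. With spike-in centring 10 of the 14 were higher and the median was 0.25, where 30.9% of all autosomal probes were higher and their median was -0.16. Loess on signal and quantile normalization each gave 13 higher and a median of 0.35, beside 51.1% and 52.6% of all autosomal probes higher.

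Gas5, whose RNA also binds the glucocorticoid receptor, had 3 probes. Probe 1 read 3.63 in wild-type and 3.83 in the array labelled Nr4a-TKO, a difference of 0.20 that turned to -0.03 with spike-in centring. Probe 2 read 4.01 and 4.42 (0.41), and probe 3, the closest to the 3′ end, read 5.60 and 6.26 (0.66). The 3 differences were in the order of the probes along the RNA.

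Snhg5 had the largest host difference. This host of a box C/D snoRNA read 0.44 in wild-type and 1.46 in the array labelled Nr4a-TKO, which is 1.02 or 2.03-fold. Normexp gave 0.93, under 2-fold, and spike-in centring 0.79. Snhg1, which carries several C/D snoRNAs in its introns, read 2.99 and 3.86 (0.87, 1.82-fold). Snhg12 read 4.12 and 4.95 (0.84, 1.79-fold). Both stayed higher under every scaling tried, with 0.64 for Snhg1 and 0.61 for Snhg12 at the lowest.

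Snhg7 read 1.98 and 2.57, a difference of 0.59, and Snhg6 read 5.65 and 6.18, a difference of 0.52. Snhg17, filed on the array under an older clone name, read 1.03 and 1.53 (0.50). For Snhg16 the 2 probes differed by 0.33 and 0.46. These RNAs lay below 2-fold and were higher under each of the scalings.

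The smallest positive host differences belonged to Snhg15 (5.59 and 5.81, 0.22) and Snhg10 (0.63 and 0.84, 0.20). Spike-in centring turned both to below 0, at -0.01 and -0.03. The Snhg15 probe shares 20 to 22 bases with probes for 5 coding genes, whose differences ran from -0.01 (Utp6) to 0.09 (Synrg). Snhg3, host of a box H/ACA snoRNA that helps to cut the ribosomal RNA precursor, was the exception in direction: it read 5.01 in wild-type and 4.63 on the other array, a difference of -0.38 that was negative under every scaling. Snhg18 was well above background on neither array.

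**Figure D2:**
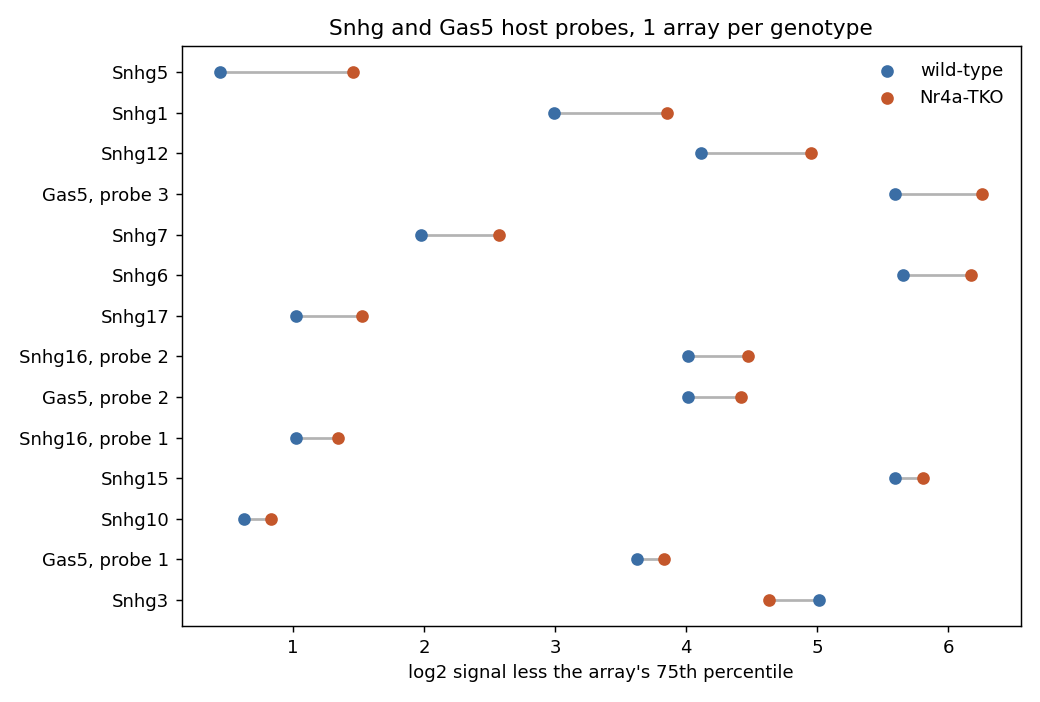
Scaled log2 signal (horizontal axis, less the array's 75th percentile) of the 14 measured Snhg and Gas5 probes on the wild-type array (blue) and the array labelled Nr4a-TKO (orange), 1 array each. Lines join the 2 values of a probe, ordered by difference from Snhg3 (-0.38) to Snhg5 (1.02); levels are compared within a row only.

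**Figure D3:**
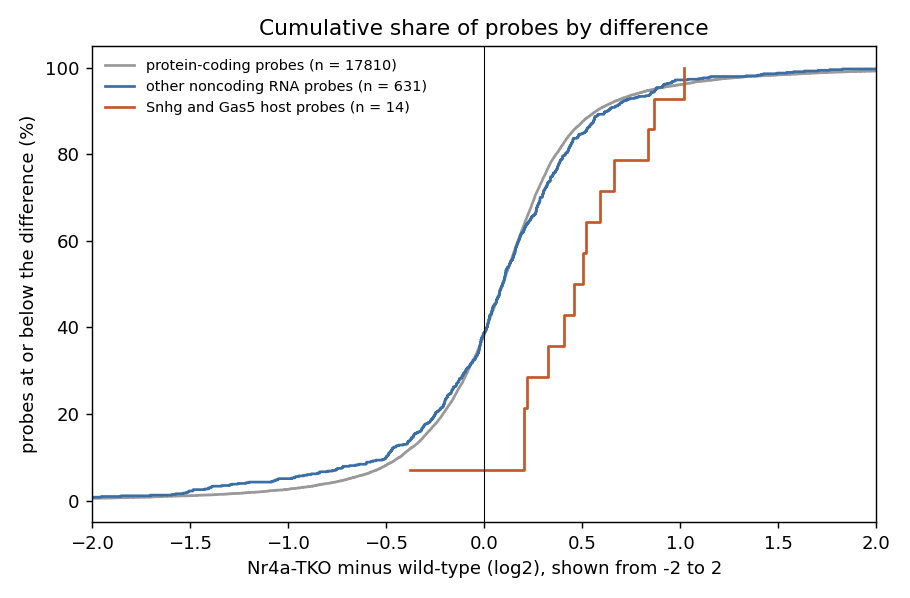
Cumulative share of measured probes (vertical axis, %) at or below a given log2 difference, for 17810 protein-coding probes (grey), 631 other noncoding probes (blue) and 14 host probes (orange). The host line lies to the right, with a median of 0.48, while 4.96% of all members against 2.62% of coding probes lie at -1 or below.

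Coding genes that act with snoRNAs and hosts had smaller median differences than the hosts. The 15 probes (12 genes) of proteins that bind snoRNAs were higher in 14 cases and none passed 2-fold, with a median of 0.24. Among them, fibrillarin (Fbl), the methyltransferase of C/D particles, read 5.38 and 5.72 (0.33), and Ruvbl2, an assembly helicase, read 5.33 and 5.92 (0.59). With spike-in centring 8 of the 15 were higher and the median was 0.01. The 17 probes (16 genes) of nonsense-mediated decay had a median of 0.08 with 10 higher, and Upf1, the helicase at its centre, read 2.12 and 2.20 (0.08). With quantile, spike-in and loess scaling their median was -0.04, -0.15 and -0.05. Of 158 measured ribosomal protein probes, 151 were higher, 2 at least 2-fold (background 2.99%), and 1 was at least 2-fold lower (background 3.08%). Their median of 0.16 became 0.00 with quantile, -0.07 with spike-in and -0.03 with loess scaling. Higher were 58.3% of all autosomal probes, and 65.8% of those with a mean signal above the 75th percentile. With spike-in centring 40 of the 158 were higher, beside 30.9% of all autosomal probes. The direction of the hosts was thus shared by most snoRNA-binding and ribosomal protein probes in the main scaling.

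snoRNAs themselves and hosts under other names had few probes. Snora47 read -2.76 in wild-type and -2.02 on the array labelled Nr4a-TKO (0.74). Snora74a read 2.16 and 2.79 (0.63). Dancr, a host that is also studied as a regulator of cell differentiation, read 2.82 and 3.38 (0.56). Those 3 were higher under every scaling, whereas Rps15a-ps6, a ribosomal protein pseudogene in this list, read -0.06 and -1.26, a difference of -1.20 or 2.30-fold lower. Rnu3b1, a nucleolar RNA given below with the spliceosomal RNAs, was not higher.

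Structural RNAs of the ribosome and spliceosome were measured although most lack a poly(A) tail. Rmrp, the RNA of an enzyme that processes ribosomal RNA, differed by 0.04 and by -0.19 with spike-in centring. Terc, the template RNA of telomerase, read -3.05 and -2.71 (0.34). The 2 probes of Rn45s, the ribosomal RNA precursor, differed by 0.28 and 0.45. Mature ribosomal RNAs, named after their values were seen, gave 0.15 for Rn18s, 0.32 for Rn28s1 and 0.67 for Rs5-8s1. Rn4.5s, a small RNA that is not one of these and was also named after its value was seen, gave -0.16. Spike-in centring turned Rn18s to -0.08.

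Spliceosomal RNAs held 2 of the 19 higher probes. Rnu2-10, a copy of the U2 RNA that pairs with the branch site, read 0.19 and 1.53 (1.34, 2.52-fold). Rnu1b6, a copy of the U1 RNA that recognises the start of introns, read 5.11 and 6.25 (1.15, 2.21-fold), and 0.92 with spike-in centring. These sequences exist in several near-identical copies, so each value may sum over copies. Rnu12 of the minor spliceosome gave 0.35 and Rnu3b1, a nucleolar RNA, -0.07; both were named after their values were seen.

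Malat1, a nuclear RNA of splicing-factor speckles, stood at 1.28 in wild-type and 2.86 on the array labelled Nr4a-TKO, 2.98-fold higher. The difference of 1.58 was 1.51 with normexp and 1.35 with spike-in centring. Neat1, the scaffold of paraspeckles, lies close by on chromosome 19 and read 3.70 in wild-type, with a difference of 0.30.

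Imprinted RNAs, read from 1 parental chromosome, had probes in both directions. Of their 7 measured probes 4 were higher and 3 lower, beside 58.3% of all autosomal probes higher. At least 2-fold higher was 1 of the 7 (background 2.99%), and 1 was at least 2-fold lower (background 3.08%). Their median of 0.03 turned to -0.20 with spike-in centring. H19, a growth-restraining RNA of the fetus, gave 2 unlike answers. Probe 1 read -2.53 in wild-type and -0.07 on the array labelled Nr4a-TKO (2.46, 5.50-fold), whereas probe 2 read -4.71 and -4.70 and was above background on the wild-type array alone. Mrpl23, the nearest measured coding gene, differed by 0.34.

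Kcnq1ot1, which silences its neighbours on the paternal chromosome, was lower on both probes: from -1.03 to -1.95 (-0.92) for probe 1 and from 1.78 to 0.71 (-1.07, 2.11-fold) for probe 2. Airn, which silences Igf2r, was lower too, from 0.65 to -0.31 on one probe (-0.97), and at least 3.65-fold lower on the other (1.71-fold with normexp), which was not above background on the array labelled Nr4a-TKO. Gnasas1, transcribed against the Gnas cluster, was at least 4.84-fold higher (just past 2-fold with normexp), being well above background on that array alone. Peg13 differed by 0.03 and Mirg by 0.06, both turning below 0 with spike-in centring, and 1 of the 3 Meg3 probes was measured, with 0.44.

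RNAs with names starting Mir included microRNA hosts and the unrelated Mirt1. Mirt1, named for its induction after cardiac infarction, read -2.93 and -4.47 on probe 1 (-1.54) and 1.57 and -0.55 on probe 2 (-2.12, 4.36-fold lower). Normexp left probe 1 at -0.55 and probe 2 at -1.99. Mir17hg, the host of a growth-promoting microRNA cluster, differed by 0.10, turning to -0.13 with spike-in centring. Mir22hg gave 0.56 (0.37 with normexp), Mir100hg 0.52 (0.29 with normexp) and Mir1a-1hg -0.39 (-0.05 with normexp). Mirt2, Mir124-2hg, Mir9-3hg and Mir99ahg were above background on neither array.

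RNAs studied in T cells or immune cells had 5 measured probes with a median of 0.30. None was past 2-fold, against a background of 2.99% higher and 3.08% lower. Pvt1, next to Myc, read 1.86 and 2.38 on one probe (0.52) and -0.05 and 0.25 on the other (0.30). A430093F15Rik gave 0.55, Morrbid, which restrains the death factor Bim, 0.16, and Nron, which holds NFAT in the cytoplasm, 0.02. All 5 probes were higher, beside 58.3% of all autosomal probes. With spike-in centring Morrbid and Nron turned to -0.07 and -0.21, where 30.9% of all autosomal probes were higher.

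Antisense and opposite-strand RNAs had 34 of 85 probes measured, 17 higher and 17 lower, where 58.3% of all autosomal probes were higher. None of the 34 was past 2-fold, against a background of 2.99% higher and 3.08% lower. Among antisense and opposite-strand RNAs on 1 array only, Tmem51os1, named after its values were seen, was at least 2.15-fold lower (1.43-fold with normexp). The 34 measured probes ran from Vax2os1, at -3.46 and -4.18 (-0.72), to Map2k3os, at -0.83 and 0.08 (0.91). The median was -0.01, and 0.05 with normexp.

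Pseudogenes had the lowest member of all. Of 227 probes 142 were measured. At least 2-fold higher were 2 of them (1.41%, background 2.99%), and 6 were at least 2-fold lower (4.23%, background 3.08%). The pseudogene Rps15a-ps6, 2.30-fold lower and given above with the snoRNA hosts, is not counted here. The median of 0.15 over the 142 turned to -0.08 with spike-in centring. Gm4956, a pseudogene of unknown function, read 1.57 in wild-type and -3.14 on the array labelled Nr4a-TKO, a difference of -4.71 or 26.2-fold. Normexp gave -3.79. Gsta3, its nearest measured coding gene, differed by -0.02.

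Other pseudogenes lay nearer to 0. Znf41-ps, a zinc finger copy, read -0.58 and -3.18 (-2.60, 6.06-fold lower; -1.90 with normexp). One probe each of Smarca5-ps, Gm3002, Gm11346 and Gm4759 differed by -1.43, -1.40, -1.30 and -1.07. Other measured probes of these RNAs were under 2-fold, at 0.32 and 0.37 for Smarca5-ps, -0.46 for Gm3002 and -0.02 for Gm4759. In normexp Smarca5-ps, Gm3002 and Gm4759 fell under 2-fold. Hmga2-ps1 read -3.93 and -2.16 (1.76, and 1.01 with normexp), and Gm4371 -4.51 and -2.88 (1.63), where normexp gave 0.82 for Gm4371, with a second Gm4371 probe at least 2.92-fold higher.

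**Figure D4:**
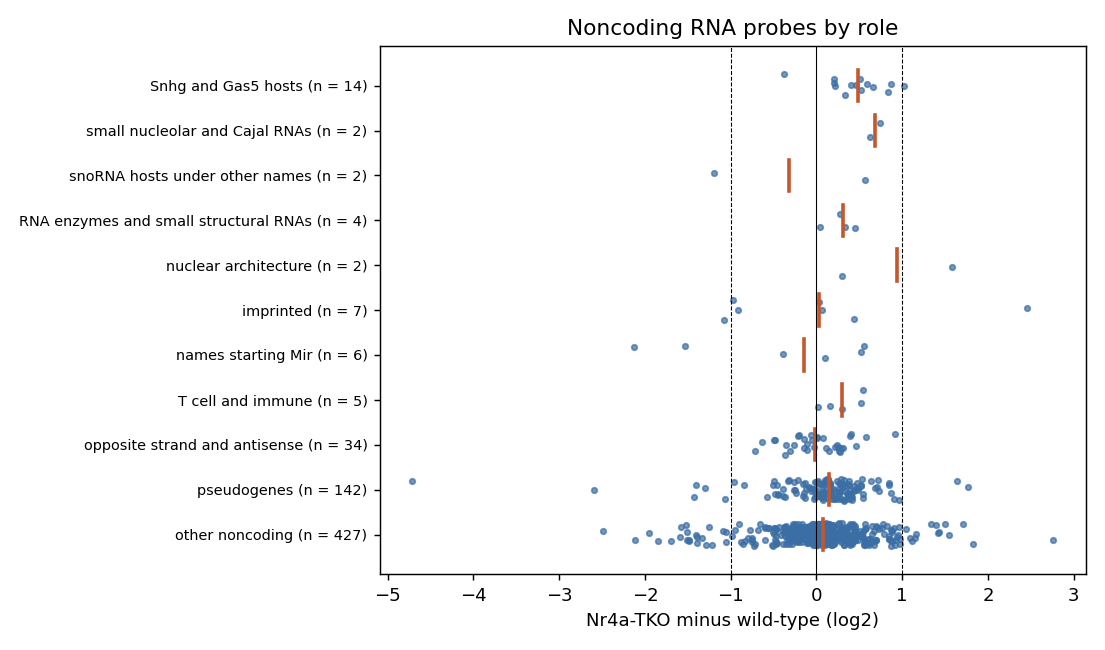
Log2 difference (horizontal axis, array labelled Nr4a-TKO less wild-type) of the 645 measured member probes by role (rows, with the number of probes), 1 point a probe; orange bars are medians and dashed lines mark 2-fold. Hosts centre at 0.48, and the pseudogene at the far left is Gm4956 at -4.71.

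Among RNAs outside these roles, most of which have no known function, 14 of 427 measured probes were at least 2-fold higher (3.28%, background 2.99%), Rnu2-10, Rnu1b6 and 1 probe of 2810025M15Rik among them. Gm16894 led, reading -2.31 in wild-type and 0.46 on the array labelled Nr4a-TKO (2.76, 6.79-fold; 2.33 with normexp). Gm9895 read -3.28 and -1.57 (1.70, and 1.08 with normexp), and Cerox1, which raises transcripts of respiratory complex I, read -3.04 and -1.49 (1.54, 2.92-fold). Lockd, transcribed downstream of the cell cycle inhibitor Cdkn1b, read 3.36 and 4.48 (1.12, 2.17-fold; 0.89 with spike-in centring). Of the rest, Gm13032 was 1.49 higher, G630025P09Rik 1.42, 4930455D15Rik 1.41, E130112N10Rik 1.40, Gm4827 1.16 and 5033406O09Rik 1.04, 4921525O09Rik was 2.14-fold higher, and BB557941 at 0.98 and 4930509E16Rik at 0.97 fell just short of 2-fold. Normexp brought G630025P09Rik, 4930455D15Rik, Gm4827, 4921525O09Rik and 5033406O09Rik under 2-fold.

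In the other direction 22 of the 427 probes were at least 2-fold lower (5.15%, background 3.08%). A930001A20Rik read -1.46 and -3.95 (-2.49, 5.63-fold; -1.41 with normexp), Gm16062 read 1.47 and -0.64 (-2.11, 4.33-fold), and Gm13546 read 2.50 and 0.54 (-1.95, 3.87-fold). Normexp gave -2.01 for Gm16062 and -1.92 for Gm13546, so both held their size. Between -1.85 and -1.34 came 1810010D01Rik, 4921531P14Rik, Phxr4, Gm11696, 2610035D17Rik, BC018473, 2700046G09Rik, 2310034G01Rik, 1810062O18Rik, 4930581F22Rik, 4931429P17Rik and D930028M14Rik, at -1.85 for the first and -1.34 for the last. With normexp 2310034G01Rik (-0.87), 4931429P17Rik (-0.63) and D930028M14Rik (-0.77) were under 2-fold, and 1810010D01Rik and Gm11696 went to -1.13 and -1.02.

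For members that the scanner called on 1 array only, a lower bound was set from the lowest such signal on the other array. Of 116 such probes 13 (11.2%) were at least 2-fold higher by that bound, against 9.44% of all autosomal ones, and 14 (12.1%) were lower, against 8.3%. The bounds named next are the largest among RNAs with no probe measured on both arrays. The 3.65-fold lower bound of Airn, which has such a probe, is therefore not among them. The largest bounds on the higher side were 13.1-fold for G630055G22Rik, 9.21-fold for 4930511M06Rik, 7.46-fold for Gm10791, 6.17-fold for 1700001K23Rik, 5.86-fold for A230056J06Rik and 5.28-fold for A830009L08Rik. Normexp lowered these to 4.79-fold for G630055G22Rik, 3.76-fold for 4930511M06Rik, 2.97-fold for Gm10791, 2.53-fold for 1700001K23Rik, 2.50-fold for A230056J06Rik and 2.96-fold for A830009L08Rik. On the lower side they were 8.08-fold for Olfr29-ps1, an olfactory receptor pseudogene, 7.39-fold for 9130015A21Rik, 4.04-fold for Gm805, 2.93-fold for 1700041C23Rik, 2.92-fold for Gm5 and 2.63-fold for Gm10640. There normexp gave 3.83-fold for Olfr29-ps1 and 3.01-fold for 9130015A21Rik, and under 2-fold for Gm805 (1.78), 1700041C23Rik (1.98), Gm5 (1.59) and Gm10640 (1.45). Of the 27 bounds at or above 2-fold, 12 were at least 2-fold with normexp and all 27 kept their direction, so each bound holds for the scanner's processed signal only.

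Neighbouring coding genes were set beside the members, each by the brightest measured probe of the nearest gene within 50 kb. A measured coding probe lay within 50 kb of 362 members, and over these pairs, which share the 2 arrays, Pearson's r was 0.14 and Spearman's rho 0.15, with the same sign in 228. Within 5 kb the sign was the same in 53 of 75 pairs (r 0.10, rho 0.18), and for the 27 members past 2-fold in 17 (r 0.24, rho 0.38). No same-sign share was computed for unrelated pairs, and 58.3% of all autosomal probes were higher. The same-sign counts therefore do not show whether neighbours agree more often than other pairs. Of 13 members at least 2-fold higher with such a neighbour, 1 had a neighbour past 2-fold in the same direction and 1 in the opposite one. Among 14 lower members there was none, and 5.25% of all 362 neighbours were past 2-fold. Gm16894 lay 46.9 kb from Il1r2, the decoy receptor for interleukin-1, on the opposite strand, and Il1r2 read 0.81 and 3.22 (2.41, 5.32-fold higher). E130112N10Rik lay 6.69 kb from Cd27, a costimulatory receptor, which read 2.09 and 0.24 (-1.85, 3.61-fold lower) while E130112N10Rik was 1.40 higher. Gm13546 lay 44.0 kb from Cytip, a lymphocyte adhesion regulator, which differed by -0.80, and Lockd 26.0 kb from Cdkn1b, which differed by 0.03.

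**Figure D5:**
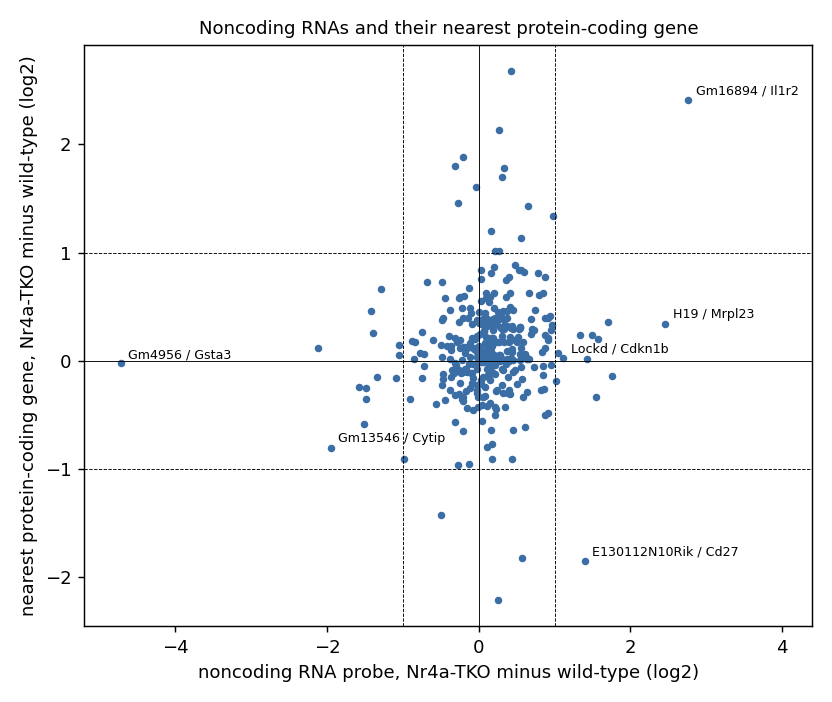
Log2 difference of 362 noncoding probes (horizontal axis) against that of the nearest measured protein-coding gene within 50 kb (vertical axis). Both are the array labelled Nr4a-TKO less wild-type, with dashed lines at 2-fold, and the gene's value is that of its brightest measured probe in that window. Gm16894 and Il1r2 (2.76 and 2.41) are the pair beyond both lines in the upper right, and E130112N10Rik and Cd27 (1.40 and -1.85) the one in the lower right.

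Some member probes share sequence with coding probes, and probes at different places of 1 RNA could give unlike values. The part of probe sequence or position in any value was not tested. A stretch of at least 20 bases was shared with a coding probe by 39 members, 25 of them pseudogenes, on the same strand in 33 and on the opposite strand in 9. Gm15421 shares 54 bases with a probe of Rpl22l1, a ribosomal protein, and the differences were 0.54 and 0.60. D330041H03Rik shares 50 bases, on the opposite strand, with a probe of the lipid transporter Abca3, and differed by -1.29 where Abca3 differed by 0.66. For Gm10845, an RNA named after its values were seen, 3 probes on chromosome 14 gave 0.29, -0.18 and -1.41. 2810025M15Rik, named likewise, gave 0.35 on one probe and 1.83 on the other. Capitals mark the shared stretch in the first and second sequence below, and the Gm10845 probes follow in the order of their values.
Gm15421 (chr5:22034094-22034153, minus strand): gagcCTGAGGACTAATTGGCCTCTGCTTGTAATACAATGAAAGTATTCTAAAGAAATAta
D330041H03Rik (chr17:24547069-24547214, minus strand): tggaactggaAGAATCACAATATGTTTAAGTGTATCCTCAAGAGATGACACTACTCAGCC
Gm10845 probe 1 (chr14:80260429-80260488, minus strand): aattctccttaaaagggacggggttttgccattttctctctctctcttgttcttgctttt
Gm10845 probe 2 (chr14:80261857-80261916, minus strand): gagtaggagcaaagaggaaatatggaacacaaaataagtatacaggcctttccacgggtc
Gm10845 probe 3 (chr14:80262167-80262226, minus strand): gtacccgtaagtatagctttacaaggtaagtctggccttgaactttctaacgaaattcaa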

How the data were processed

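Total RNA of Treg cells was measured on 1-colour Agilent mouse arrays, 1 per genotype, with groups from the labels' genotype. What the authors deposited are scanner intensity values (Agilent Feature Extraction 10.10.1.1, mm9 annotation, per the file headers). A second deposited table holds log2 values, which matched the processed signal's log2 after taking off 1 constant for each array (SD 0.00029), with column medians of -3.54 and -3.53. The exact rule behind its constant stays unknown.

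Of 62976 spots per array, 3671 controls and outlier spots (156 and 117) were left out. Signals were averaged over spots as log2 and scaled to the 75th percentile over 55676 probes. In wild-type 66.0% and in Nr4a-TKO 63.9% of probes were well above background. Precision is limited by 1 array per genotype. Names came from the file or, by accession, from RefSeq (GRCm38.p6, names and promoters only); 1265 of 1331 members matched. The lowest well-above-background signal on the dim array, or the probe's own if higher, set each bound. Alternatives were normexp (limma 3.58.1, R 4.3.3, offset 50), 5 other scalings, the deposited log2 table, filters, thresholds and 1 value per RNA. Python 3.11.15 with pandas 2.3.3 and numpy 2.4.6 did the rest. The counting step was tested on simulated data. Members and lists were chosen with earlier results of these data known. Named were all hosts, the measured role lists (opposite-strand RNAs and pseudogenes by their extremes), and, of the others, the 15 largest differences in each direction (brightest probe of an RNA, no opposite probe). Also named were the 6 largest bounds in each direction, among RNAs with no probe measured on both arrays.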

Additional observations from a re-analysis of the deposited data

How the results depend on the processing

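The 19 higher and 32 lower members past 2-fold went to 12 and 20 with normexp, 87 and 101 with no filter on dim probes, 73 and 56 at a 1.5-fold threshold, 6 and 9 at 3-fold, and 5 and 6 for members above the 75th percentile of mean signal, an alternative chosen after seeing the data. No share over all autosomal probes is given for the unfiltered, 1.5-fold and 3-fold counts. Those counts therefore do not show whether members differ from the rest of the array. The filter planned as stricter had its limit below the lowest signal already passing, so it could remove no member and tests nothing. The host median of 0.48 went to 0.35 with quantile normalization, 0.25 with spike-in centring and 0.35 with loess on signal. The median of the other noncoding RNAs went from 0.09 to -0.14 with spike-in centring. For these moves beyond the threshold's and filters' own construction, the cause was not tested. Naming hosts by the file's own names, or leaving out 4 ribosomal RNAs, both chosen after seeing the data, left medians and counts within the limits set. Of the 51 member probes past 2-fold, none turned sign under the scalings and normexp; 19 were under 2-fold with normexp, 6 with spike-in centring and 3 with loess. No paired analysis was possible because each genotype had 1 array.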
